A study of Mus musculus with 4 samples.

Results

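Folr2/Mrc1-type resident macrophages are the 347 cells, of 21140 in the whole data set (1.641%), that were in the authors' merged count matrix but not in their matrix of EYFP-positive cells, held a UMI (one counted RNA molecule) of at least 3 of the macrophage genes Lyz2, C1qa, C1qb, Csf1r and Cd68, and held a UMI of at least 3 of Folr2, Mrc1, Cd163, F13a1 and Cbr2. Only cells of the EYFP-positive matrix carry a deposited cell type, so cells outside it are called untyped here. The cells were therefore chosen by the authors' EYFP filter and by their own expression of these 10 genes, and the levels of those genes are described below without a test. The comparison class was the 1218 macrophages, chosen by the same first set, that held at most 1 gene of the second set. A further 243 macrophages held exactly 2 and entered neither class. Where a cell came from was not measured, so "resident" is used here only as the name for this expression type.

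Tissue macrophages of most organs include a long-lived type that sits beside vessels and in connective tissue and takes up folate, glycoproteins, hemoglobin complexes and dead cells. It is known by Folr2 (the beta folate receptor), Mrc1 (the mannose receptor CD206), Cd163 (the scavenger receptor for haptoglobin-hemoglobin), F13a1 (the transglutaminase subunit of clotting factor XIII) and often Lyve1 (a hyaluronan receptor), in contrast to monocyte-derived cells that carry Ccr2 and more MHC class II. In the pancreas, such cells are found in the stroma around acini and ducts.

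The cells came from pancreata of mice with the genotype Ptf1aCre-ERTM;ROSAYFP/+, backcrossed into CD-1 and 10 weeks old when injury began. All mice received tamoxifen, which activates Cre in cells with Ptf1a promoter activity (acinar cells in the adult pancreas) and so switches on EYFP in them, and then repeated caerulein, which overstimulates the acinar cells and inflames the organ. Injury lasted 2 weeks in 2 mice and 4 weeks in the other 2. EYFP-positive cells were collected by flow sorting and profiled with 10x Genomics 3' v3.1 chemistry, and no uninjured mice were among the samples. Macrophages were thus not the target of the sort, and how many of them reached the libraries depended on the gate as well as on the tissue.

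The class held 51 and 174 cells in 2-week mice 1 and 2, and 51 and 71 cells in 4-week mice 1 and 2. Their summed UMIs ranged from 380214 to 1031686 per mouse, and the median cell held 5807 UMIs, against 6111 in the other macrophages. Mitochondrial UMIs made up 1.78% to 2.09% of the total per mouse, against 1.45% to 1.95%. Of 67 cell barcodes found in more than 1 mouse, 2 belonged to resident macrophages. RNA of acinar cells was present in every cell: all 347 held UMIs of at least 3 of 16 acinar enzyme genes, as did all 1224 T and B cells. The latter are untyped cells with at least 3 T cell or at least 3 B cell markers and fewer than 3 of the macrophage genes of the rule. They are used here as a measure of free RNA, though the last condition can lower macrophage RNA in them. The 16 genes summed to between 10418 and 54566 CPM (UMIs scaled to a common library total, the unit of all levels here) in resident macrophages and to between 20817 and 139481 CPM in other macrophages, where 4-week mouse 2 was the highest. Endothelial markers summed to at most 15.6 CPM in resident macrophages and T cell markers to at most 5.26 CPM, with Cd3e and Cd3g at 0. Fibroblast markers ranged from 32.3 to 1234 CPM, and 48 of 347 resident macrophages (13.8%) held at least 3 markers of some type other than macrophage or acinar cell, against 251 of 1218 other macrophages (20.6%).

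Promoter sequences of the 4 genes that give the cells their name are shown because these genes were read out together and because macrophage genes are known to be controlled through sites for PU.1, an ETS-family factor. Each run is the 250 bases before the first-listed transcription start (RefSeq, GRCm38.p6), 5′ to 3′ on the gene's strand. Capitals mark GAGGAA or its reverse complement TTCCTC, a core that PU.1 can bind.
Folr2, chr7:101857191-101857440, minus strand: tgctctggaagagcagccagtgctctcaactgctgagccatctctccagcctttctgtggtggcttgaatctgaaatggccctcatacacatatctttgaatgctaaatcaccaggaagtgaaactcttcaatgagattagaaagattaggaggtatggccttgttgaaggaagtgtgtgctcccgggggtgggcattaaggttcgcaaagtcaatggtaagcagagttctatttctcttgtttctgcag
Mrc1, chr2:14229164-14229413, plus strand: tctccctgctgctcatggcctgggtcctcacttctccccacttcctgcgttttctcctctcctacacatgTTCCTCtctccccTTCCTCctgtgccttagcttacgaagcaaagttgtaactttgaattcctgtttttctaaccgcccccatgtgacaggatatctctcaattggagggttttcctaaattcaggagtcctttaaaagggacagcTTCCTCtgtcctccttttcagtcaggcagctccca
Cd163, chr6:124304401-124304650, plus strand: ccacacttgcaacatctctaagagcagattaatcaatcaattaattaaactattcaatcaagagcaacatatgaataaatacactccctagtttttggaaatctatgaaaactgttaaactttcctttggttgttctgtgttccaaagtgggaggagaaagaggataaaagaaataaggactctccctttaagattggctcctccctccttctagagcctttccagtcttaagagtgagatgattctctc
F13a1, chr13:37050245-37050494, minus strand: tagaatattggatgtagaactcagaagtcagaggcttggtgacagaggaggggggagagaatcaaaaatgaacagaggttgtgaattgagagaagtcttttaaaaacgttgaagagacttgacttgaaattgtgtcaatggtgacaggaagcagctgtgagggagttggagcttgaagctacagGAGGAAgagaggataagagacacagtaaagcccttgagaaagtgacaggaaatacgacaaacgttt
Mrc1 held 3 matches, F13a1 held 1, and Folr2 and Cd163 held 0 in this window. Of all 32851 listed starts, 23.3% had a match in the 250 bases before them, so a match is common, and it describes letters only. Among 18 genes listed as resident and perivascular macrophage genes (used again below), 15 had a listed start and 9 of those (60.0%) held a match before the first one, against 23.1% of 27025 genes. That list was chosen with earlier results of these data known. Other macrophage genes were not counted, and the difference was not tested.

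The genes that define the class separated it from other macrophages in every mouse, as the rule requires. Folr2 stood at 679 and 388 CPM in 2-week mice 1 and 2 and at 494 and 794 CPM in 4-week mice 1 and 2, and at 2.03 to 6.98 CPM in other macrophages. Mrc1 ranged from 744 to 1254 CPM against 65.0 to 133 CPM, F13a1 from 679 to 955 CPM against 4.78 to 13.2 CPM, and Cbr2, a carbonyl reductase, from 399 to 692 CPM against 5.09 to 8.83 CPM. Cd163 was the least often seen: 97 of 347 cells (28.0%) held a UMI of it, against 264 for Folr2, 303 for Cbr2, 321 for F13a1 and 339 for Mrc1. Mrc1 was also the gene the other macrophages shared most, with a UMI in 31.7% of them. In T and B cells, which should lack all 5, 0.735% of cells held a UMI of Mrc1 and 0.408% or fewer a UMI of any of the others, at a median depth of 3485.5 UMIs.

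**Figure D1:**
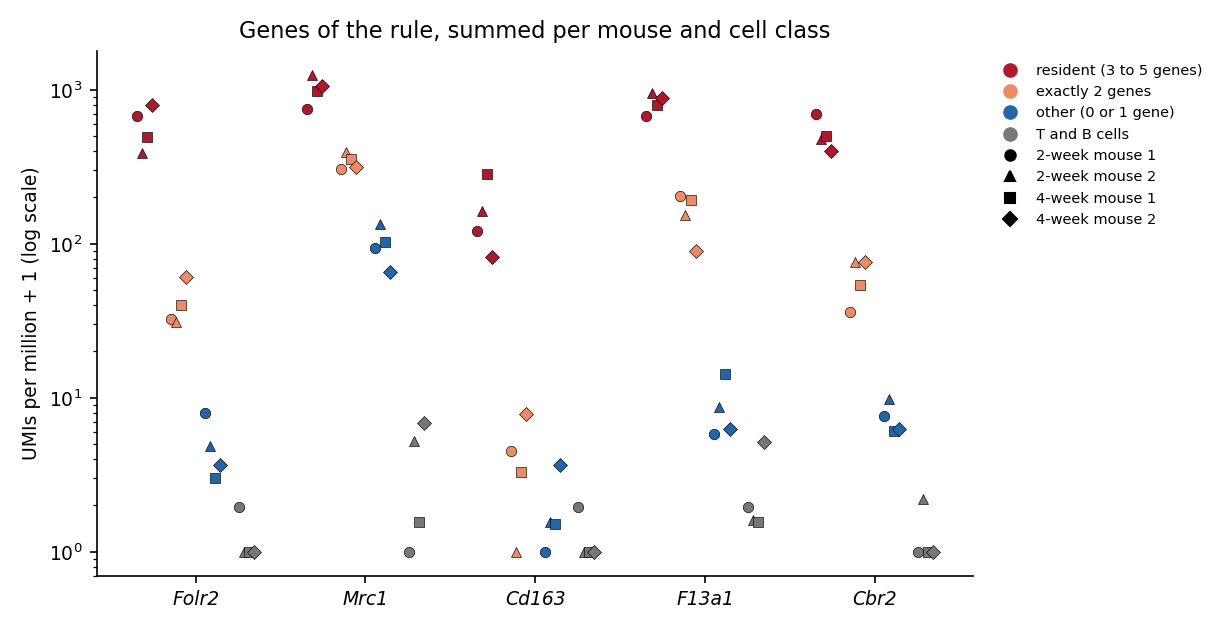
Levels of the 5 second-set genes of the rule, in CPM plus 1 on a log axis, summed per mouse (marker shape) within 4 cell classes (color). Resident macrophages lie above the cells with exactly 2 genes, the other macrophages and the T and B cells for every gene, which the rule itself produces.

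Each gene of the second set was also left out of the rule in turn and then measured in cells chosen by at least 3 of the remaining 4, against cells with at most 1 of them, an alternative added after the data were seen. The left-out gene was higher in the chosen cells in 4 of 4 mice for all 5 genes. Folr2, for example, reached 765 and 409 CPM in cells chosen without it in 2-week mice 1 and 2, and 593 and 934 CPM in 4-week mice 1 and 2, against 10.2 to 15.1 CPM in the rest. The log2 ratios were 4.97 to 5.95 for Folr2, 2.75 to 3.42 for Mrc1, 4.29 to 8.15 for Cd163, 4.22 to 5.42 for F13a1 and 4.31 to 5.96 for Cbr2. The smallest separation was that of Mrc1. These are the genes of the rule itself, so the values are a description.

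At the edge of the rule, 133 members held exactly 3 genes of the second set and 243 cells just outside held 2. The 3-gene cells had a median of 6036 UMIs and the 2-gene cells 7846, so the cells just inside were not the deeper ones. Among cells with 3 genes, 9.02% held a UMI of Lyve1, against 0.823% of cells with 2, 36.6% of cells with 4 and 71.0% of cells with 5. The level of Gas6 was 55.8 CPM with 2, 254 CPM with 3, 607 CPM with 4 and 914 CPM with 5. Above 2 genes Ccr2, the chemokine receptor of monocytes, went the other way, from 424 CPM with 2 to 187, 147 and 53.9 CPM with 3, 4 and 5, and the MHC class II gene H2-Ab1 from 6234 CPM to 4244, 3421 and 1463 CPM. These are pooled levels over 4 mice, given as a description. Below 2 genes the order did not continue: Ccr2 was at 175 CPM with 0 and 328 CPM with 1, and H2-Ab1 at 5474 and 7637 CPM. The mice did not enter evenly, since 2-week mouse 2 gave 74 of the 243 cells with 2 genes but 68 of 133, 70 of 145 and 36 of 69 with 3, 4 and 5. Within each mouse, Lyve1 was highest in cells with all 5 genes, at 431 and 301 CPM in 2-week mice 1 and 2 and at 571 and 375 CPM in 4-week mice 1 and 2, against 153, 239.7, 84.2 and 114 CPM with 4. Ccr2 with all 5 genes was at 119, 54.4, 45.7 and 0 CPM, lower than at any smaller number in every mouse but 2-week mouse 1, where it was at 45.9 CPM with 4. From 3 to 4 genes Ccr2 was higher, not lower, in both 4-week mice, at 206 and 289 CPM in 4-week mouse 1 and at 189 and 213 CPM in 4-week mouse 2, so the pooled fall over that step came from the 2-week mice. H2-Ab1 with 2, 3, 4 and 5 genes was at 7932, 5574, 2133 and 2481 CPM in 2-week mouse 1 and at 4639, 2805, 1847 and 667 CPM in 2-week mouse 2. It was at 6767, 4817, 5907 and 2479.9 CPM in 4-week mouse 1 and at 5664, 6474, 5029.8 and 1514 CPM in 4-week mouse 2. The steady pooled order was thus seen in 2-week mouse 2 alone, while cells with 5 genes were below cells with 2 in all 4 mice.

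**Figure D2:**
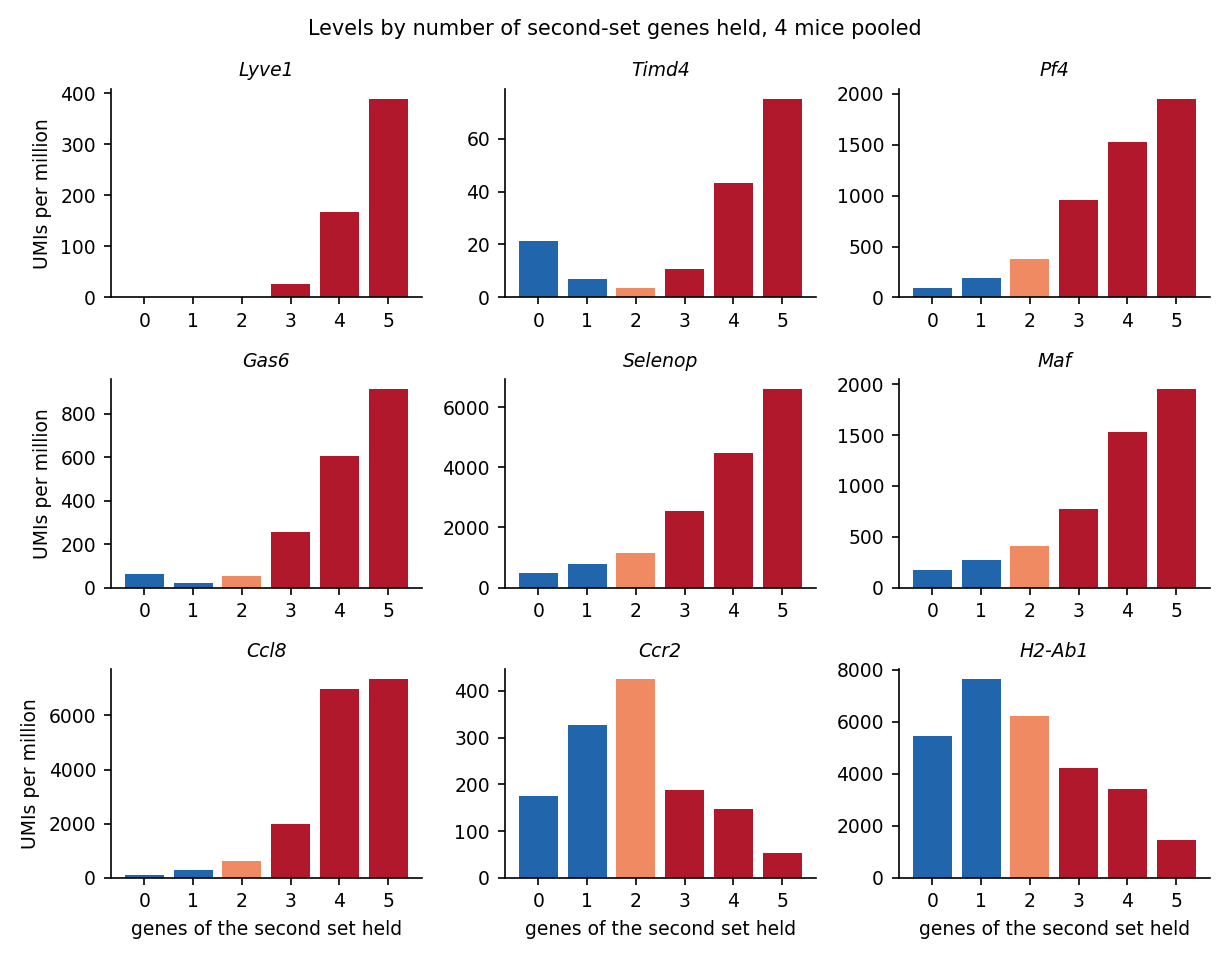
Pooled levels of 9 genes, in CPM (bars from 0), by how many of the 5 second-set genes a macrophage held, in blue for other macrophages, orange for cells with 2 and red for resident macrophages. Lyve1 goes from 0.979 CPM with 2 genes to 389 CPM with 5, and Ccr2 from 424 CPM to 53.9 CPM.

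Members also differed from each other within a mouse. A Lyve1 UMI was found in 114 of 347 (32.9%, 95% exact interval 27.9% to 38.1%). The interval treats the pooled cells as independent and does not cover the spread between mice. By mouse the shares were 23.5%, 37.9%, 29.4% and 29.6% in 2-week mice 1 and 2 and 4-week mice 1 and 2. H2-Ab1 was held by 270 cells (77.8%), at 94.3% of other macrophages and 50.9% of T and B cells, which include B cells with MHC class II of their own. Lyve1 without H2-Ab1 was held by 44 cells, H2-Ab1 without Lyve1 by 200, and both by 70. Lyve1 and Ccr2 occurred together in 12 cells, while Ccr2 was held by 83 in all (23.9%, against 46.6% of other macrophages). Timd4, a receptor for phosphatidylserine on dying cells that marks long-resident macrophages, was unevenly spread: 21 of 51 members held it in 2-week mouse 1 (41.2%), 8 of 174 in 2-week mouse 2 (4.60%), 11 of 51 in 4-week mouse 1 (21.6%) and 11 of 71 in 4-week mouse 2 (15.5%). The 2-week mice thus held both the highest and the lowest share. The members of 2-week mouse 2 had the lowest H2-Ab1 share (69.0%), where the other mice had 84.3% to 92.2%, and a median depth of 5118 UMIs, where the others had 5674 to 6749.

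Resident macrophages made up 10.4% of 489 macrophages in 2-week mouse 1 (95% exact interval 7.86% to 13.5%), 37.7% of 462 in 2-week mouse 2 (33.2% to 42.3%), 12.4% of 410 in 4-week mouse 1 (9.40% to 16.0%) and 15.9% of 447 in 4-week mouse 2 (12.6% to 19.6%). 2-week mouse 2 stood apart, and the other 3 mice had overlapping intervals. The mean at 4 weeks minus that at 2 weeks was -9.88 percentage points (two-sided exact permutation test, p = 1.0, where 2 against 2 mice cannot go below 0.333), and without 2-week mouse 2 the sign turned, to 3.73 points higher. Among all untyped cells the shares were 2.95%, 10.4%, 2.44% and 3.11%, a difference of -3.88 points (p = 0.667, exact permutation test), or -0.17 without 2-week mouse 2. No difference between the time points was detectable, and these shares also depend on the sort.

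What else separates resident from other macrophages was asked over all genes, with counts summed per mouse and class and the mouse kept as a block. Of 8688 genes tested, excluding the 10 genes of the rule and EYFP, 1068 were higher (12.3%) and 1084 lower (12.5%) in resident macrophages at an adjusted p under 0.05 (edgeR quasi-likelihood test), or 24.8% in either direction. The classes were cut from the same UMIs, so genes that go with the second set were bound to differ. The test says how far each difference exceeded the variation of that difference among 4 mice. The median log2 difference of all genes tested was 0.00, and each list count below stands against these shares. Without the mouse as a block, 1196 genes passed, DESeq2 called 1146, and 1427 passed without 2-week mouse 2.

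The 18 genes of a list of resident and perivascular macrophage genes, chosen with earlier results of these data known, were all measured, and 16 were higher and 0 lower. Their median log2 difference was 2.79, also with Lyve1 at its lower bound. Lyve1 stood at 132 and 165 CPM in 2-week mice 1 and 2 and at 166 and 122 CPM in 4-week mice 1 and 2, and at 0 UMIs in all 1218 other macrophages, which allows a share of up to 0.246% of cells with a UMI and sets no limit on cells that express it below detection. It was at least 423-fold higher, taking 3 counts over the class as the floor. The 4 levels were close to each other. A single T or B cell of 2-week mouse 2 held 247 Lyve1 UMIs, and no other T or B cell held one.

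The list includes several secreted products. Pf4, a platelet-type chemokine, was at 1115 and 1691 CPM in 2-week mice 1 and 2 and at 1061 to 1119.6 CPM in the 4-week mice, against 91.4 to 195 CPM in other macrophages (log2 difference 3.05, SE 0.13, adjusted p = 1.41e-11, edgeR). Selenop, which carries selenium in plasma, was at 2919 to 5012 CPM against 512 to 824 CPM (log2 difference 2.49, SE 0.12). Gas6, the bridging ligand of TAM receptors on cells that engulf dead cells, was at 381 to 579.6 CPM against 12.9 to 91.6 CPM (log2 difference 3.45, SE 0.43, adjusted p = 0.0134, edgeR). Igf1, a growth factor, was at 201 to 306 CPM against 15.8 to 87.7 CPM (log2 difference 2.25, SE 0.45, adjusted p = 0.0399, edgeR). In none of these did the 4 resident values overlap with the 4 others. The share of all genes without overlap was not counted, so this is a description. Fcna (ficolin A, a lectin of the complement system) rose by 3.91 and Ltc4s (leukotriene C4 synthase) by 2.51 on the log2 scale. Leaving out 4-week mouse 2 ended the calls for Gas6, Igf1 and Fcna, leaving out 2-week mouse 1 that for Igf1, and leaving out 2-week mouse 2 that for Fcna.

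The list also holds lectin receptors, of which Cd209f, Cd209g, Cd209d and Clec10a rose and Mgl2 did not pass. Cd209f was at 231 and 75.6 CPM in 2-week mice 1 and 2 and at 395 and 415 CPM in 4-week mice 1 and 2, against at most 7.93 CPM in other macrophages, and Cd209g at 41.7 to 171 CPM against at most 2.11 CPM. The mouse Cd209 genes are near copies of each other, so the split of reads among them is uncertain. Clec10a, a galactose-type lectin, was at 368 to 955 CPM against 60.8 to 84.2 CPM (log2 difference 2.97, SE 0.29). Mgl2, its close relative, did not pass, at 127 to 286 CPM against 56.5 to 272 CPM (log2 difference 0.31, SE 0.17, adjusted p = 0.227, edgeR). Timd4 did not pass either (log2 difference 1.41, SE 0.43, adjusted p = 0.0525, edgeR): it was higher in resident macrophages in 3 of 4 mice, and in 2-week mouse 2 it was at 9.69 CPM against 10.5 CPM.

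The largest differences outside the rule genes, by the size of the log2 difference among genes with a mean of at least 20 CPM in the higher class and 1 direction in all mice, included several that are not usual macrophage markers. Tslp, a cytokine best known from epithelium, was at 42.1 and 56.2 CPM in 2-week mice 1 and 2 and at 59.7 and 127 CPM in 4-week mice 1 and 2, with 152 UMIs against 2 in all other macrophages together, a CPM ratio of 286 (95% exact interval 77.8 to 2383, counting error only; adjusted p = 6.94e-10, edgeR). Mmp9, a gelatinase, was at 23.7 to 57.7 CPM against at most 0.528 CPM, with 95 UMIs against 2, a ratio of 179 (48.1 to 1497). Against cells with exactly 2 genes the Mmp9 difference was 2.65 on the log2 scale and not called. C6, a component of the terminal complement pathway, was at 41.7 to 111 CPM against at most 2.11 CPM (log2 difference 6.04). Chp2, a calcium-binding calcineurin B-like protein, was at 68.8 to 192 CPM against 1.10 to 3.17 CPM, and Nxpe5 at 26.3 to 129 CPM against 1.47 to 4.41 CPM. Ednrb, an endothelin receptor, was at 149.9, 183, 197 and 307 CPM against 1.10, 2.21, 10.2 and 24.8 CPM in the same order of mice (log2 difference 4.51, SE 0.55, adjusted p = 0.0101, edgeR). For each of these genes the lowest resident value lay above the highest of the other class. Genes picked for the size and direction of their difference tend to separate in this way, so it is a description only. Vsig4, a complement receptor for C3 fragments, was at 55.2, 7.75, 36.4 and 73.8 CPM against 0, 0, 0 and 8.45 CPM, so its lowest resident value, in 2-week mouse 2, lay below the highest of the others.

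**Figure D3:**
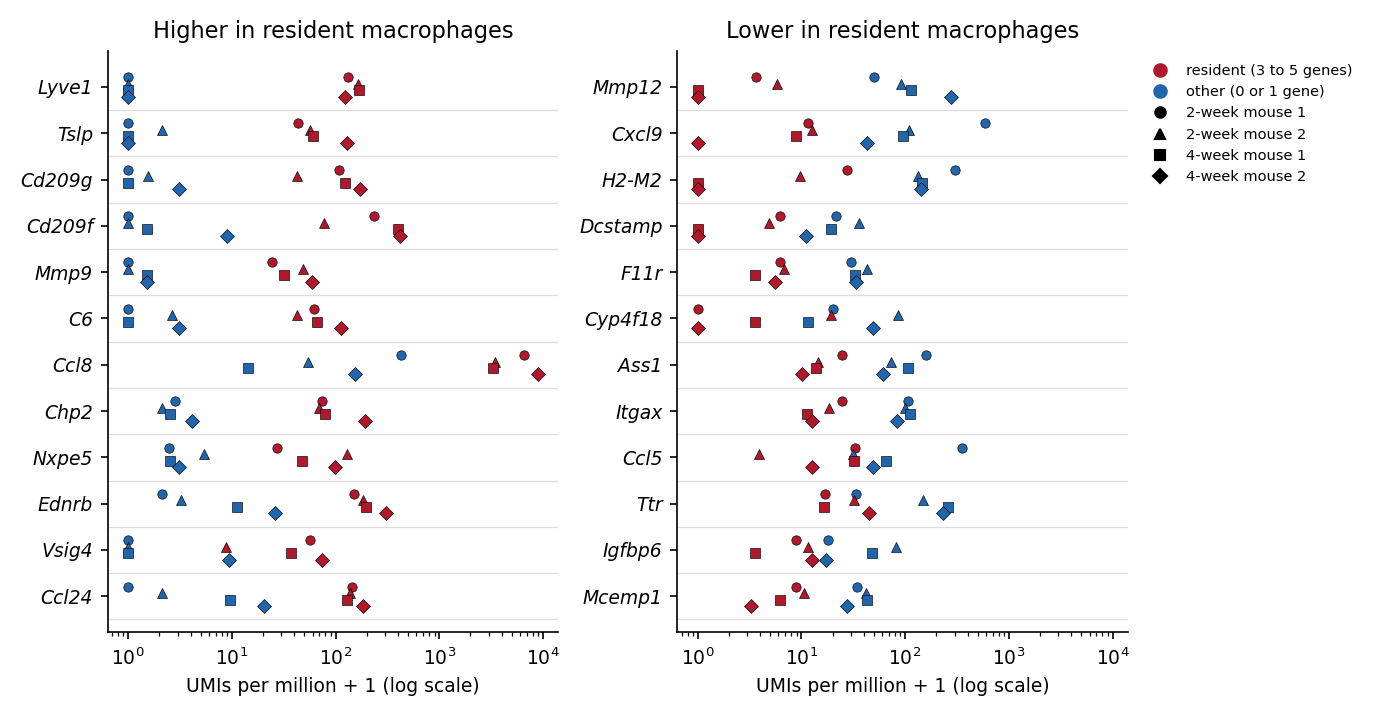
Levels per mouse, in CPM plus 1 on a log axis, of the 12 genes with the largest differences in each direction, in resident macrophages (red) and other macrophages (blue), with marker shape for the mouse. Lyve1 is at 0 in the 4 blue values, Ccl8 has the highest resident values, and Mmp12 is at 0 in resident macrophages of both 4-week mice.

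Among the genes lowest in resident macrophages, Mmp12 (macrophage elastase) was at 2.63 and 4.85 CPM in 2-week mice 1 and 2 and at 0 in both 4-week mice, against 49.6, 91.0, 113 and 275 CPM (log2 difference -5.63, SE 0.39, adjusted p = 1.74e-07, edgeR). Cxcl9, a chemokine induced by interferon gamma that attracts T cells, was at most 11.6 CPM against 594, 109, 94.6 and 42.3 CPM (log2 difference -4.48, SE 0.37). The calls for Mmp12 and Cxcl9 were lost when cells with 2 genes joined the class, and that for Cxcl9 also without the mouse as a block. H2-M2, a nonclassical MHC class I gene, was at 0 to 26.3 CPM against 131 to 302 CPM (log2 difference -4.47). Itgax, the integrin CD11c of dendritic cells and some macrophages, was at 10.4 to 23.7 CPM against 82.4 to 110.4 CPM (log2 difference -2.78, SE 0.21). Dcstamp, needed for macrophage fusion, F11r, a junctional adhesion molecule, and Ass1, an enzyme of arginine synthesis, had log2 differences of -3.34, -3.02 and -2.81. The levels of the 2 classes did not overlap for Mmp12, Cxcl9, H2-M2, Itgax, Dcstamp, F11r or Ass1. These genes were picked for large differences with the same direction in all mice, so the separation is a description only. Cyp4f18, Ccl5, Ttr, Igfbp6 and Mcemp1 were lower with log2 differences from -2.84 to -2.54. All of these but Mcemp1 lost their call without the mouse as a block. Ttr also lost it against cells with exactly 2 genes, and Igfbp6 when cells with 2 genes joined the class.

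Chemokines split between the classes: 8 of 20 tested were higher in resident macrophages and 6 lower, with a median log2 difference of -0.54. Ccl8, which attracts monocytes, T cells and eosinophils, was at 6488 and 3409.9 CPM in 2-week mice 1 and 2 and at 3276 and 8916 CPM in 4-week mice 1 and 2, against 427, 53.0, 13.2 and 153 CPM (log2 difference 5.64, SE 0.93, adjusted p = 0.0342, edgeR). It was found in 262 of 347 resident macrophages (75.5%), in 15.1% of other macrophages and in 1.39% of T and B cells. Ccl24, an eotaxin, was at 127 to 182 CPM against 0, 1.10, 8.65 and 19.5 CPM (log2 difference 4.37, SE 0.82, adjusted p = 0.0447, edgeR). Ccl6 was at 1160.2 to 1652 CPM against 276 to 601 CPM and Ccl9 at 378 to 523 CPM against 165 to 201 CPM. Both calls were lost against cells with exactly 2 genes. Pooled over mice, those cells held 1009 CPM of Ccl6 and 346 CPM of Ccl9, where resident macrophages held 1343 and 443 CPM. In the other direction, Cxcl16 was at 240.0 to 355 CPM against 406 to 798 CPM (log2 difference -1.06, SE 0.11), and Cxcl14 fell by 2.42. The other macrophages thus held more of the CXCR3 and CXCR6 ligands Cxcl9 and Cxcl16, and the resident ones more Ccl8, Ccl24 and Pf4. The call for Ccl8 was lost under 5 of 16 alternatives and that for Ccl24 under 8, while the direction held in all of them. Leaving out 2-week mouse 2 or 4-week mouse 2 ended the call for both genes, and leaving out 4-week mouse 1 ended that for Ccl24.

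Receptors and proteins of uptake were raised in part. In the list of scavenger and endocytic receptors 7 of 17 were higher and 0 lower (median log2 difference 0.35). Stab1 (stabilin 1) was at 618 to 970.3 CPM against 106 to 211 CPM (log2 difference 2.16, SE 0.11, adjusted p = 6.45e-11, edgeR), Dab2, an endocytic adaptor, at 449 to 675 CPM against 114 to 229 CPM, and the scavenger receptors Cd36 and Colec12 rose by 1.16 and 1.04. Msr1 and Marco did not pass (log2 differences -0.11 and -1.44). Genes for uptake of dead cells went both ways, 4 of 13 higher and 4 lower. Of the TAM receptors, Mertk was higher (57.7 to 96.0 CPM against 32.6 to 57.9 CPM, log2 difference 0.78, SE 0.17) and Axl lower (127 to 260.4 CPM against 148 to 365 CPM, log2 difference -0.66, SE 0.12). Both of their ligands, Gas6 and Pros1, were higher, Pros1 by 1.71, and so was the cholesterol exporter Abca1, by 1.18. The calls for Mertk and Axl were both lost against cells with exactly 2 genes. That for Mertk was also lost on thinned cells and that for Axl without the mouse as a block.

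Complement genes other than C1qa and C1qb were higher in 7 of 11 and lower in 0. C4b, a component of the classical and lectin pathways, was at 146 to 348 CPM against 20.2 to 98.7 CPM (log2 difference 2.09, SE 0.36). C1qc, the partner chain of 2 rule genes, was among the 7 with a small difference (log2 0.37, SE 0.12, adjusted p = 0.0244, edgeR), and its call was lost under 9 of 16 alternatives, among them DESeq2 and leaving out 2-week mouse 2, 4-week mouse 1 or 4-week mouse 2. The call for C4b was lost under 4, among them leaving out 4-week mouse 2. For iron and heme, 5 of 12 were higher and 1 lower: Hmox1 (heme oxygenase) was at 219 to 418 CPM against 100.4 to 159.9 CPM, and Blvrb and Tfrc rose by 1.51 and 1.63. The iron exporter Slc40a1 was higher in 4 of 4 mice but did not pass (log2 difference 2.22, SE 0.75, adjusted p = 0.108, edgeR). The iron store Fth1 was the gene that fell, at 8709 to 12167 CPM against 14543 to 19012 CPM (log2 difference -0.88, SE 0.10).

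MHC class II and monocyte genes were lower in part. Of 12 MHC class II and costimulatory genes 5 were lower and 0 higher, and of 10 monocyte genes 6 were lower and 0 higher. Cd74, the invariant chain, was at 10286, 9643, 12931 and 13411 CPM against 19502, 18984, 21728 and 12788 CPM (log2 difference -0.79, SE 0.18, adjusted p = 0.0154, edgeR), and H2-Ab1 at 3843, 2041, 4756 and 4977 CPM against 7766, 4755, 7807 and 4908 CPM (log2 difference -0.88, SE 0.22, adjusted p = 0.0337, edgeR). Ccr2 was at 153, 110.5, 205 and 171 CPM against 265, 279, 265 and 167 CPM (log2 difference -0.79, SE 0.22, adjusted p = 0.0375, edgeR). Leaving out 2-week mouse 1 ended the call for each of these 3 genes. H2-Ab1 was also not called against cells with 0 genes (-0.67) or without the mouse as a block (-0.80). Ccr2 was not called against cells with 0 genes (-0.33) and turned to 0.14 when cells with 2 genes joined the class. All 3 were lower in 3 of 4 mice and slightly higher in 4-week mouse 2, whose other macrophages held the 139481 CPM of acinar RNA given above. With the 16 acinar genes left out of the library size, Cd74 in that mouse was at 14185 against 14861 CPM. H2-Ab1 was then at 5265 against 5703 CPM and Ccr2 at 181 against 195 CPM. All 3 were thus lower in 4 of 4 mice by that scaling, though by little in 4-week mouse 2. The fit with that library size called 2143 genes and made all 3 calls, with log2 differences nearly unchanged. Its TMM normalization rescales whatever library size it is given. Little change was therefore bound to follow, and the fit was no test of acinar RNA. The part of acinar RNA in the levels of that mouse was not tested. S100a6 and S100a4, calcium-binding proteins of motile cells, fell by 1.29 and 1.08. The S100a4 call was lost under 4 of 16 alternatives and the S100a6 call under 2, with differences as small as -0.07 and -0.33.

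Lipid-associated macrophage genes, which mark foamy and scar-associated cells, were lower in 6 of 18 and higher in 0 (median log2 difference -0.97). Cd9, a tetraspanin, was at 39.5 to 112 CPM against 173 to 341 CPM (log2 difference -1.88, SE 0.19) and Lgals3 (galectin 3) at 491 to 981 CPM against 1319 to 1846 CPM (log2 difference -1.45, SE 0.16). Trem2 and Apoe, the lipid-sensing receptor and its ligand, did not differ past the threshold: Trem2 was at 255, 780.3, 351 and 351 CPM against 219, 539, 432 and 362 CPM (log2 difference -0.03, SE 0.12), and Apoe at 29631 to 51114 CPM against 26399 to 40755 CPM (log2 difference 0.19, SE 0.10). Growth factors and matrix regulators split, with 4 of 19 higher and 8 lower: Pdgfc rose by 2.19, and Pdgfa and Vegfa fell by 1.22 and 1.40. Among inflammatory mediators, Tnf was at 9.23 to 16.5 CPM against 15.9 to 49.6 CPM and fell by 1.33, Il1rn fell by 1.44, and Tlr4 rose by 1.31, with 3 of 10 lower and 1 higher. Il1b was at 2.63, 229, 197 and 4.62 CPM against 119, 559, 255 and 88.8 CPM and did not pass (adjusted p = 0.229, edgeR).

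Of 32 macrophage transcription factors 11 were higher and 7 lower, where all genes had 12.3% and 12.5%. Maf (c-Maf), a factor of mature macrophages, was at 1170.4 and 1575 CPM in 2-week mice 1 and 2 and at 1036 and 981 CPM in 4-week mice 1 and 2, against 131 to 255 CPM (log2 difference 2.33, SE 0.13, adjusted p = 2.13e-10, edgeR). Irf4 (2.27), Tcf4 (1.32), Klf2 (1.27), Klf4 (1.12) and Zeb2 (0.73) were higher on the log2 scale. The calls for Klf4 and Zeb2 were lost against cells with exactly 2 genes, and that for Klf4 also without the mouse as a block. Klf2 was even across mice, at 296 to 328 CPM against 82.7 to 158 CPM. Runx3 was at 4.62 to 26.2 CPM against 58.1 to 129 CPM (log2 difference -2.49, SE 0.24), and Id2 fell by 1.00. Of 23 lysosomal genes 8 were higher, among them Ctsb (0.73) and Grn (0.75), and 5 lower, among them Ctss (-0.94).

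Interferon-stimulated genes were higher in 5 of 14 and lower in 1, with Ifit1 higher by 1.09 (a call lost without 4-week mouse 2) and Isg15 not called (0.17). In both classes they were highest in 2-week mouse 1, where the list summed to 9447 CPM in resident and 8725 CPM in other macrophages, against 1059 to 3211 CPM and 821 to 2518 CPM in the other mice. Proliferation genes were lower in 2 of 9, and Mki67 did not pass. Immediate early and heat shock genes were higher in 3 of 16 and lower in 2, near the 12.3% and 12.5% of all genes. Peritoneal macrophage genes were higher in 1 of 5 and lower in 1, with a median log2 difference of -1.40. Alternative activation genes were higher in 4 of 10 and lower in 1 (median log2 difference 0.57). Retnla, an IL-4-induced secreted protein, was the most uneven of them between mice, at 2599, 42.6, 1507 and 22478 CPM in resident and 14.7, 113, 192 and 951 CPM in other macrophages (log2 difference 3.51, SE 2.02, adjusted p = 0.34, edgeR). In 4-week mouse 2 it was found in 42 of 71 resident macrophages (59.2%), and in 2-week mouse 2 in 8 of 174 (4.60%).

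Markers of other cells moved with the class, and their part in the results was not tested. Both B cell markers tested, Ighm (log2 difference 1.67, SE 0.14) and Cd79b (0.86, SE 0.20), were higher in resident macrophages, and the 5 B cell markers summed to 305 to 366 CPM against 69.2 to 145 CPM, with 4 of 347 cells holding 3 or more of them. Of 8 epithelial markers other than acinar ones 7 were lower, such as Epcam (log2 difference -1.79, SE 0.22; -0.62 and not called without cells holding markers of another type, -0.13 and not called against cells with exactly 2 genes), and the 9 genes of that list summed to 104 to 298 CPM against 190.4 to 1202 CPM. Of 16 acinar genes 4 were lower and 0 higher. With cells that held at least 3 markers of another type left out of both classes, 2092 genes were called, and 1757 of the 2012 earlier calls still tested passed again.

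**Figure D4:**
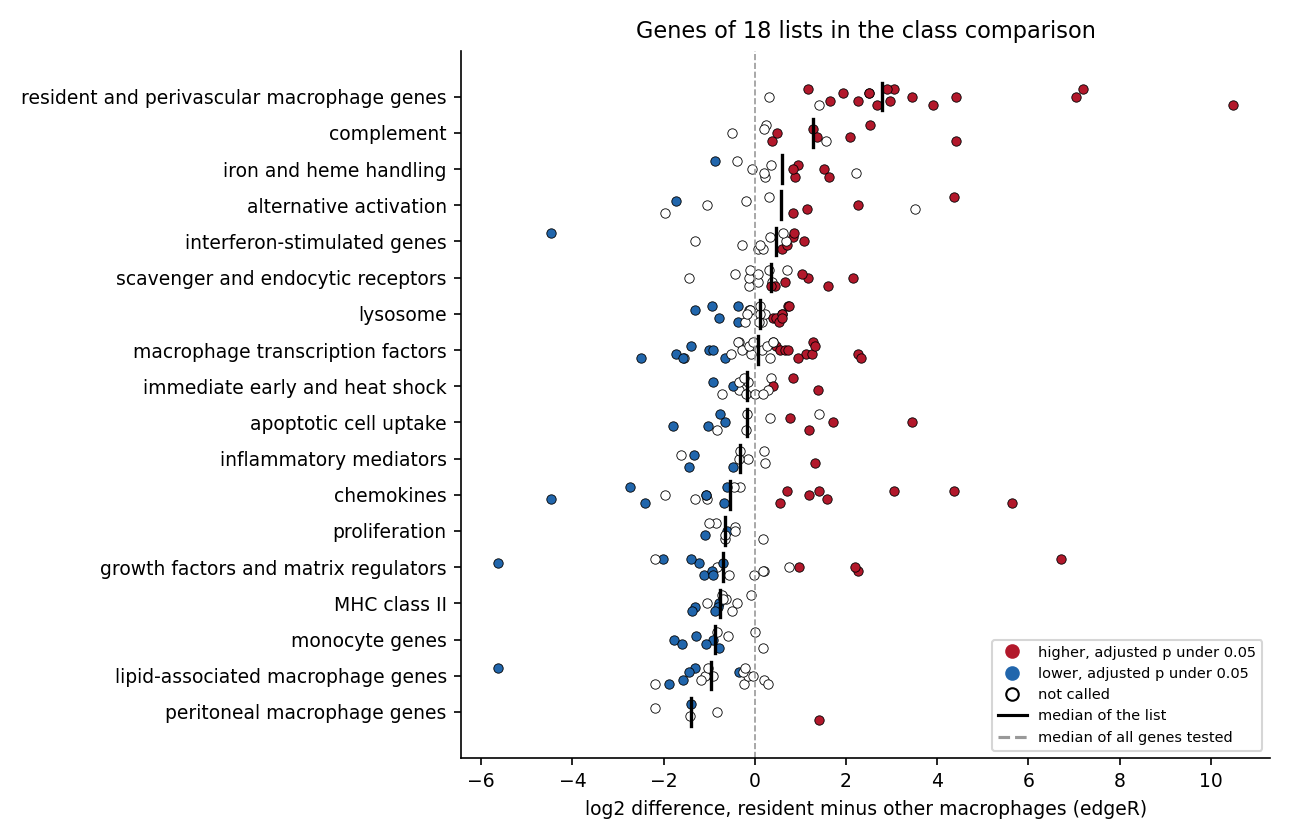
Log2 differences between resident and other macrophages (edgeR, x axis) for the genes of 18 lists (rows, ordered by median), with filled points for genes past an adjusted p of 0.05, black bars for list medians and a dashed line for the median of all genes tested. The resident and perivascular list has the highest median, 2.79, and the lipid-associated list a median of -0.97.

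Against cells with exactly 2 genes of the second set, an alternative chosen after seeing the data, 547 of 5269 genes were called. Thinning every cell to 1500 UMIs left 821 of 3646. Of the 84 called genes followed through the alternatives of this comparison, 42 kept their call in every alternative that tested them and 42 lost it under at least 1. Not every gene was tested in all 16. Lost calls are named above for only some of the genes that lost one.

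Whether resident macrophages changed between 2 and 4 weeks of caerulein was tested over 5306 genes in this class alone, 2 mice against 2. In all 5 genes passed (0.0942%; edgeR, adjusted p under 0.05), 3 higher and 2 lower at 4 weeks, and 210 had an unadjusted p under 0.05. None of the 18 resident and perivascular genes was called (smallest adjusted p = 0.223, edgeR): Lyve1 differed by 0.16 (SE 0.26), Pf4 by -0.15 (SE 0.27), Gas6 by 0.29 (SE 0.26) and Maf by -0.23 (SE 0.25), on the log2 scale and as 4 minus 2 weeks. With 2 mice a time point, changes of that size were not detectable.

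Atf3, a stress-induced transcription factor, was at 308 and 345 CPM in 2-week mice 1 and 2 and at 80.5 and 55.4 CPM in 4-week mice 1 and 2 (log2 difference -2.06, SE 0.27, adjusted p = 0.0115, edgeR). The time points did not overlap. Genes named over time were chosen partly by that, and the share of all genes without overlap was not counted, so it is a description. It was the 1 gene called among 15 immediate early and heat shock genes tested, a group that tissue digestion is also known to induce. In other macrophages it was at 278, 430.4, 217 and 130.0 CPM and in T and B cells at 5.78, 16.9, 2.80 and 2.52 CPM. The non-coding transcript Gm26532 was at 57.9 and 82.4 CPM against 7.79 and 9.23 CPM (log2 difference -2.83, SE 0.45, adjusted p = 0.0428, edgeR).

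The 3 genes that rose are products of gastric-type epithelium. Tff2 (trefoil factor 2) was at 292 and 363 CPM in 2-week mice 1 and 2 and at 1198 and 1922 CPM in 4-week mice 1 and 2 (log2 difference 2.47, SE 0.30, adjusted p = 0.0115, edgeR). Gkn3 (gastrokine 3) was at 271 and 355 CPM against 946 and 1306 CPM (log2 difference 2.06, SE 0.27) and Pga5 (a pepsinogen) at 36.8 and 16.5 CPM against 112 and 136 CPM (log2 difference 2.57, SE 0.39, adjusted p = 0.0328, edgeR). In T and B cells, Tff2 was at 479.6, 811, 1234 and 2201 CPM, Gkn3 at 324, 1191, 846 and 1383 CPM and Pga5 at 54.9, 39.3, 108 and 140.3 CPM, with a Tff2 UMI in 86.2% of them, against 83.6% of resident macrophages at a higher depth. Levels in resident macrophages were below those in lymphocytes of the same mouse, except for Gkn3 and Pga5 in 4-week mouse 1. The part of free RNA in these 3 results was not tested. Other macrophages were higher, with Tff2 at 4521 and 3445 CPM in the 4-week mice.

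The 5 calls depended on how the spread was estimated and on the class cut. None was made when the spread was not estimated robustly (0 by edgeR, with 187 genes at an unadjusted p under 0.05), when cells with 2 genes joined the class (0, with 243) or when cells were thinned to 1500 UMIs (0, with 75), and leaving out each mouse in turn gave more calls, each time with these 5 genes among them: 111 without 2-week mouse 1, 149 without 2-week mouse 2, 20 without 4-week mouse 1 and 32 without 4-week mouse 2. In those fits the lone mouse is assumed to vary like the other group. Over all alternatives that tested them, the log2 difference ranged from 2.03 to 2.80 for Tff2, from 1.48 to 2.42 for Gkn3, from 2.00 to 3.11 for Pga5, from -2.31 to -1.22 for Atf3 and from -3.03 to -2.06 for Gm26532. Gm26532 was also not called by DESeq2 or without cells holding markers of another type, and Pga5 not in cells with at least 3000 UMIs. Cd5l, a secreted scavenger protein, at 15.8, 5.82, 70.1 and 43.8 CPM, was not called (log2 difference 2.85, SE 0.50, adjusted p = 0.0713, edgeR).

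A different change over time in resident than in other macrophages was tested as an interaction over 9683 genes, and 2 passed (0.0207%), both lower (445 at an unadjusted p under 0.05). Fabp5, a fatty acid-binding protein, was at 907 and 919.9 CPM in resident macrophages of 2-week mice 1 and 2 and at 288 and 397 CPM in those of 4-week mice 1 and 2, while other macrophages were at 927, 898, 839 and 1760.4 CPM. The time effect in resident macrophages minus that in other macrophages was -1.77 on the log2 scale (SE 0.22, adjusted p = 0.00622, edgeR). The 2 classes had close levels at 2 weeks and did not overlap at 4 weeks. No share over all genes was counted for this, so it is a description. Spp1 (osteopontin) was at 145, 462, 125 and 180.0 CPM against 397, 968, 833 and 1503 CPM (interaction -1.60, SE 0.22, adjusted p = 0.015, edgeR), lower in resident macrophages in all 4 mice, and T and B cells held 143.5 to 463 CPM of it, close to the range of the resident values. Fabp5 stood at 24.6 to 68.4 CPM in T and B cells, far below both macrophage classes. The time comparison within resident macrophages called neither gene (edgeR): Fabp5 differed by -1.19 (adjusted p = 0.223) and Spp1 by -0.80 (adjusted p = 0.999). The class comparison called neither as well (edgeR): Fabp5 differed by -1.03 (adjusted p = 0.293) and Spp1 by -2.18 (adjusted p = 0.0549).

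**Figure D5:**
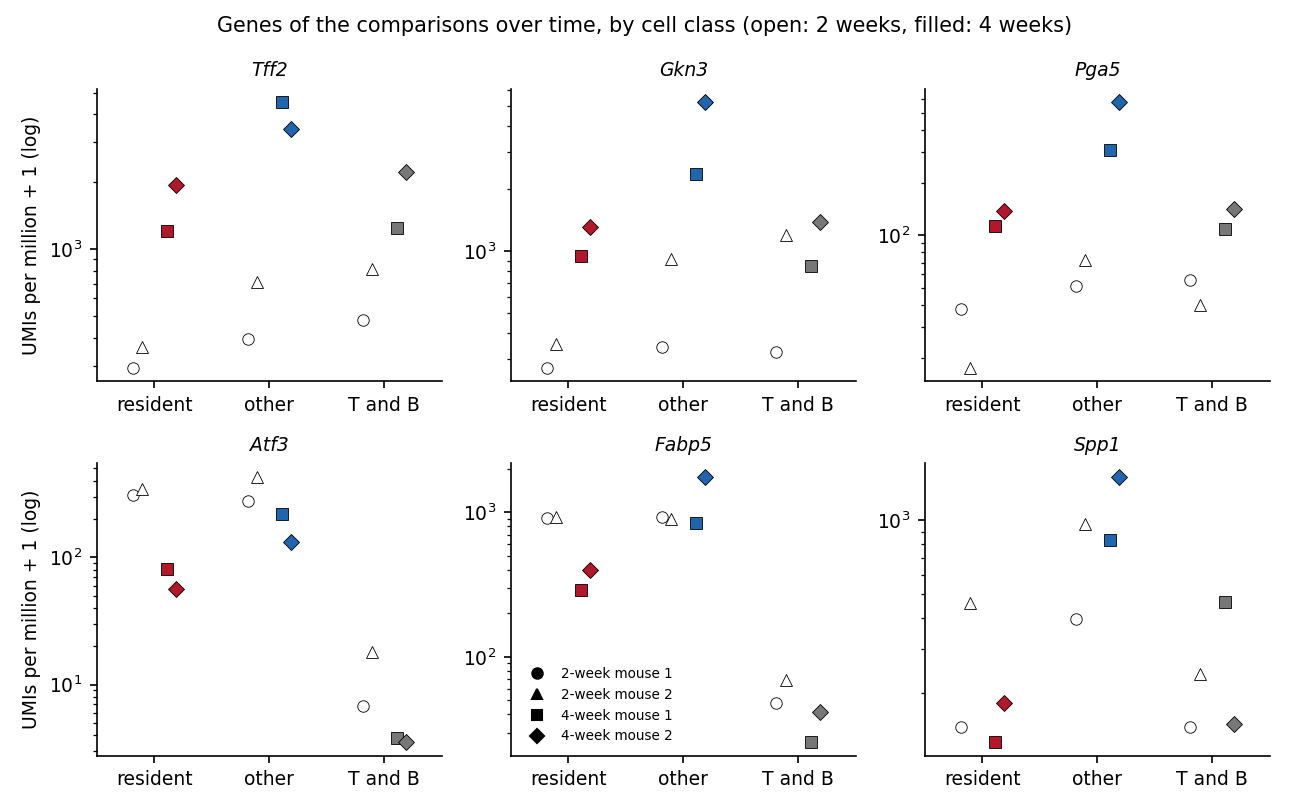
Levels per mouse, in CPM plus 1 on log axes, in resident macrophages, other macrophages and T and B cells, open for 2 weeks and filled for 4 weeks, with marker shape for the mouse. Tff2, Gkn3 and Pga5 are also present in T and B cells, where most values lie above those of resident macrophages of the same mouse, while Atf3 and Fabp5 are higher in macrophages.

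Neither interaction was called without robust estimation of the spread (0 by edgeR, with 421 genes at an unadjusted p under 0.05) or with thinned cells (0, with 229), and DESeq2 called 1 gene, which was neither of them. Leaving out 4-week mouse 1 gave 47 calls and leaving out 4-week mouse 2 gave 50, both with Fabp5 and Spp1 among them. Leaving out 2-week mouse 1 gave 1 call and leaving out 2-week mouse 2 gave 2, and neither Fabp5 nor Spp1 was among those.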

How the data were processed

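Raw UMI counts per gene and cell were deposited by the authors without normalization, made per the submitters' processing notes with Cell Ranger 4.0.0, Seurat 3.2.3 and the mm10 genome; filters on cells are not given in the sources used here. Cells were tied to mice by the sample name in each cell name. Counts of 2-week and 4-week mice were summed per mouse and class and tested with edgeR 4.0.16 (quasi-likelihood, robust, TMM, filterByExpr, R 4.3.3) with Benjamini-Hochberg adjustment at 0.05 over all genes tested. The 2 classes of a mouse come from the same animal, so the mouse was a block in the class comparison and in the interaction. Rule genes and EYFP stayed in the library size but were not tested. Each SE is the size of the log2 difference divided by the square root of the quasi-likelihood F statistic. It is approximate, and its order across genes need not follow that of the p-values. DESeq2 1.42.0, other filters, class cuts, thinning to 1500 UMIs and leaving out each mouse were alternatives. Doublets were not called. The filter keeps genes that are high in 1 class only. The labels name 4 animals. P-values of the class comparison and the interaction rest on how the class difference varied among them. Those of the time comparison rest on the spread between mice of a time point. Intervals are exact (Clopper-Pearson) at 95% and, like floors of 3 counts, cover counting error only. Named genes are those of the gene lists, up to 12 per direction in the class comparison (largest log2 difference, at least 20 CPM, the same direction in all mice) and up to 5 per direction over time (no overlap of the mice). In the interaction they are the called genes with at least 20 CPM, without a rule on overlap. The members and the lists were chosen with earlier results of these data known. The fits were also run on simulated counts with large planted changes and no difference between mice, which checks the code and not the results. All results on thinned cells rest on 1 seeded random draw.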

Additional observations from a re-analysis of the deposited data

Results flagged for a closer look

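The change over time differed between resident and other macrophages for Fabp5 (-1.77 on the log2 scale) and Spp1 (-1.60), by the test of the interaction itself in edgeR; the call was lost under 6 of 14 alternatives for Fabp5 and under 8 for Spp1, and the cause was not tested.

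EYFP, the label of the traced acinar lineage, was not part of any comparison. All cells below were left out of the authors' EYFP-positive matrix, so their EYFP shares are conditioned on that filter and are a description only. A UMI of it was found in 24 resident macrophages (6.92% of 347), in 169 of 1218 other macrophages (13.9%) and in 86 of 1224 T and B cells (7.03%), at median depths of 5807, 6111 and 3485.5 UMIs. The part of free RNA in these shares was not tested.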

How the results depend on the processing

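The class comparison called 2152 genes. DESeq2 called 1146 (1112 of them among the 2152), thinned cells 821 (740), the fit with no replicate block, which does not pair the 2 classes of a mouse, 1196 (1194), and the comparison with cells holding exactly 2 genes 547 (500); leaving out 1 mouse gave 1427 (without 2-week mouse 2) to 1790. Over time, where 5 genes were called, the counts were 0 without robust spread, 0 with cells of 2 genes added, 0 with thinned cells, 31 without a gene filter and 20 to 149 with 1 mouse left out, where the lone mouse of a time point is assumed to vary like the others. For the interaction, where 2 genes were called, the counts were 1 with DESeq2, 0 without robust spread, 37 without a filter, 1 against cells with 0 genes (neither Fabp5 nor Spp1 there or with DESeq2), 13 with cells of 2 genes added, 4 without cells holding markers of another type, 0 with thinned cells and 1 to 50 with 1 mouse left out. The share among macrophages differed over time by -23.5 to 3.73 percentage points with 1 mouse left out, and that among untyped cells (-3.88) by -7.59 to -0.17; it was -10.6 without cells holding markers of another type, which takes every T and B cell out of the denominator. Ccr2 turned to 0.14 with cells of 2 genes added. The cause was not tested. No paired analysis was possible over time because the replicate numbers were given in accession order and pair no mice. On thinned cells the rule found 172 members, so the count of members depends on depth.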
